A study of Mus musculus with 6 samples.

Results

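The genes of cholesterol and fatty acid synthesis were followed across the 6 macrophage libraries. The group held 32 genes of the 54446 gene IDs in the count table and was defined by a list of gene names. It comprised 17 enzymes of sterol synthesis, 6 regulators of sterol synthesis and 9 enzymes that make, elongate or desaturate fatty acids. All 32 symbols matched 1 gene ID each, and all 32 had at least 10 counts in at least 1 library. Bone marrow-derived macrophages (BMDMs) of BALB/c mice, grown out of marrow precursors with medium conditioned by L929 fibroblasts, were kept without a polarizing agent (M0), brought to M1 by LPS at 50 ng/mL together with IFN-γ at 20 ng/mL, or brought to M2 by 20 ng/mL of IL4. Each state was sequenced with DMSO as control and with regorafenib (1 µM), a multikinase inhibitor, added 1 hour ahead of the polarizing agents, which acted for 24 hours. How long the M0 cells were cultured with regorafenib or DMSO was not given in the sources used here. Each condition had a single library, so no comparison of 2 libraries had a replicate check, and whether different mice were used was not given in the sources used here.

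Cholesterol is built from acetyl-CoA through mevalonate, isoprenoids, squalene and lanosterol, and fatty acids are built from the same acetyl-CoA. The transcription factors of the SREBP family drive both sets of genes. When sterols in the endoplasmic reticulum are low, Scap carries SREBP to the Golgi to be cut and released, and when sterols are high the Insig proteins hold the complex back. In macrophages these genes set the supply of membrane lipids, and oxysterols made by the cell act on the LXR receptors and on the Insig proteins.

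SREBP binds short sterol elements close to the start of its target genes, and the promoters below show what such letters look like in members that differed in response. Promoter windows of 250 bases before the gene start were available from RefSeq (GRCm38.p6) for 25 of the 32 members, and not for Fads1, Fdft1, Fdps, Scd1, Scd2, Sqle and Stard4. The element TCACNCCAC, searched on both strands, was found in 1 of the 25 members, Hmgcs1, and in 1.23% of the 27025 genes with a window. The search was then widened, after the windows had been seen, to TCACCCCAC with at most 1 letter different, which 5 of the 25 members and 9.69% of all genes held. The windows of 4 of these 5 are shown 5′ to 3′ along the gene, with the matching letters in capitals. They are Hmgcs1 (chr13:119690101-119690350, plus strand), which held the exact element, and the 3 others with the strongest log2 ratio with regorafenib in M0, Hsd17b7 (chr1:169969206-169969455, minus strand), Acat2 (chr17:12960726-12960975, minus strand) and Nsdhl (chrX:72918271-72918520, plus strand). The 5th was Srebf2.
Hmgcs1: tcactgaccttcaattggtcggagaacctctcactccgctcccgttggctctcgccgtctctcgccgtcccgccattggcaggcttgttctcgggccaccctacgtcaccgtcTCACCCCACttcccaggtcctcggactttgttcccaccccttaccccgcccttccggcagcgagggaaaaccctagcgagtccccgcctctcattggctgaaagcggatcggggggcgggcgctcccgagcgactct
Hsd17b7: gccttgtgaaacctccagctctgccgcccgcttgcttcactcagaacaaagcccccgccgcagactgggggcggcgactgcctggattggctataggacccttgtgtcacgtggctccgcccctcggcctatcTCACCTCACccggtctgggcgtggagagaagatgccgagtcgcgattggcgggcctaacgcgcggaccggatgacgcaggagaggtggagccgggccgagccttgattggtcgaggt
Acat2: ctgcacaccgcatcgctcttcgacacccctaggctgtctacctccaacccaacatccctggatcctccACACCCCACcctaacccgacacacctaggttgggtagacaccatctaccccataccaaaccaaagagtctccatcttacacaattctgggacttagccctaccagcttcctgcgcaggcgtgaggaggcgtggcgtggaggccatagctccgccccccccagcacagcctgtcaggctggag
Nsdhl: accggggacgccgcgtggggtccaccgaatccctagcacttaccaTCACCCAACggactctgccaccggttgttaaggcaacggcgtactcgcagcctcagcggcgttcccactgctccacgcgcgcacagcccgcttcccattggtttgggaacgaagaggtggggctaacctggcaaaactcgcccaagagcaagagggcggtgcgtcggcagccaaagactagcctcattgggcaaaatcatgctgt
The capitals began 137 bases before the gene start in Hmgcs1, 117 in Hsd17b7, 182 in Acat2 and 205 in Nsdhl. CCAAT, the letters bound by the factor NF-Y, was found on either strand in 19 of the 25 members and in 37.5% of all genes, and the GC box GGGCGG in 20 of the 25 members and in 35.4% of all genes. A match is a description of letters, and binding was not measured. Hmgcs1, the holder of the exact element, had a log2 ratio of -0.12 with regorafenib in M0, whereas Hsd17b7 had -1.45.

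Levels are given as TMM-scaled CPM (counts scaled to a common library size). Levels of single genes were ranked against each other only after division by the length of their annotated exons (CPM per kb). Summed levels of gene lists are CPM without that division, so long and abundant genes weigh more in them. In the M0 control, Acly, which makes cytosolic acetyl-CoA from citrate, stood highest at 37.2 CPM per kb, followed by Fads1 at 32, Srebf2 at 27.6, Elovl5 at 23.6 and Sqle at 21.3. Fdps was lowest at 0.719 CPM per kb, with Elovl6 at 2.03, Scd1 at 2.54 and Acaca at 2.61. In the M1 control the order was led by Scd2 at 47.1 CPM per kb and ended with Elovl6 at 0.0662. The libraries held 25359309 to 34898342 counts. The 7 macrophage markers were present in every library and were not constant. In the M1 against the M0 control Cd68 was called lower (-1.90) and Adgre1, Mertk and Cd14 higher (3.27, 3.15 and 1.96), and Fcgr1 was called lower with regorafenib in all 3 states (-1.48, -1.23 and -1.25), Mertk higher in M0 and M2 (1.59 and 1.34) and Cd14 lower in M0 (-1.04). The 6 M1 markers were called higher in the M1 than in the M0 control, beside 16.1% of all genes. The 6 M2 markers were called higher in the M2 than in the M0 control, beside 3.55%. Of the M2 markers, Arg1 was also called higher in the M1 against the M0 control (8.40), and Mrc1 (-4.69) and Egr2 (-1.88) lower. With regorafenib in M2, Arg1 (-4.04) and Mgl2 (-2.34) were called lower and Retnla (2.22) and Chil3 (1.22) higher, beside 3.83% and 5.03% of all genes. The 5 lymphocyte markers had at most 3 counts in all per library, and the 3 adipocyte markers had at most 12. The summed level of the 6 dendritic cell markers was between 0.303 and 2.54 CPM in M0 and M2 and 32 and 38.8 CPM in M1, with Ccr7 at 780 and 827 counts and Xcr1 at 36 and 102 counts in M1, and Clec9a and Siglech at 0 or 1 count in every library. Zbtb46 of that list was called lower with regorafenib in M0 (14 to 5 counts) and higher in M2 (15 to 59 counts). The 5 neutrophil markers summed to between 84.7 and 158 CPM, with 187% of the M0 control in the M0 drug library and 180% in the M1 control, most of it Mpo, Ly6g was at 0 in every library, and S100a8 was called higher in the M1 against the M0 control (4.12). The summed level of the 5 fibroblast markers was between 3.19 CPM in the M0 control and 10.2 CPM in the M0 drug library, where Col1a1 (1.52) and Col1a2 (1.93) were called higher, and it was 278% of the M0 control in the M1 control, where Dcn was called higher (4 to 100 counts). Their part in the results was not tested. In such bulk samples fewer cells of a type and less RNA per cell cannot be told apart.

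**Figure D1:**
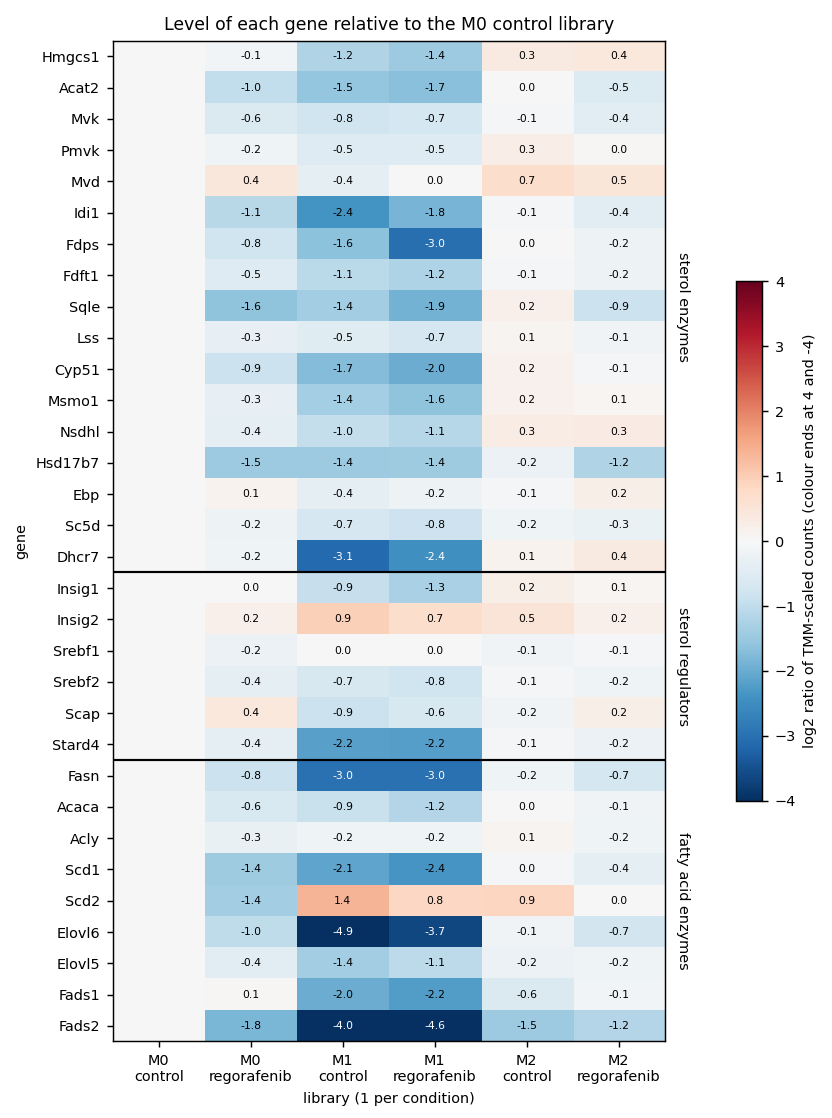
Log2 ratio of the TMM-scaled level of each of the 32 genes (rows, grouped by role) in each library (columns, 1 library per condition) to the M0 control, with the value in each cell. The M1 columns are blue for most genes, with Elovl6 at -4.9 and Fads2 at -4.0 without drug, while Scd2 is at 1.4 and Insig2 at 0.9.

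Polarization with IFN-γ and LPS was accompanied by lower levels in both arms. A gene was called between 2 libraries when it was at least 2-fold apart and the 95% interval of its log2 ratio, which covers counting error only, did not hold 0. Against the M0 control, 17 of 32 members were called lower in the M1 control, where 18.0% of the 14917 genes with at least 10 counts were, and 1 member, Scd2, was called higher, where 16.1% of genes were. The 17 were 10 of 17 sterol enzymes, 1 of 6 regulators and 6 of 9 fatty acid enzymes. The median log2 ratio was -1.22 for the sterol enzymes and -1.97 for the fatty acid enzymes, and -0.05 for all genes. All 17 sterol enzymes had an interval below 0, from Ebp at -0.35 to Dhcr7 at -3.09. With libraries scaled by their total counts, the median of all genes moved by -0.44 and the share of higher calls among all calls from 47.3% to 29.3%, and Scd2 was no longer called (0.91). That scaling called 24 members lower, where it called 27.4% of all genes lower, the 7 further ones being Acaca, Insig1, Mvk, Nsdhl, Sc5d, Scap and Srebf2.

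After IL4 most of these genes were close to the M0 control. In the M2 control 1 of 32 members was called lower, Fads2, where 6.64% of genes were, and 0 were called higher, where 3.55% of genes were. The median log2 ratio was 0.12 for the sterol enzymes and -0.13 for the fatty acid enzymes, and 0.00 for all genes.

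Regorafenib was accompanied by lower levels of several of these enzymes in M0, with fewer calls in M2 and M1. In M0, 7 of 32 members were called lower (Sqle, Hsd17b7 and Idi1 of the sterol enzymes, and Fads2, Scd1, Scd2 and Elovl6 of the fatty acid enzymes), where 9.59% of genes were, and 0 were called higher, where 7.81% of genes were. In M2, 1 of 32 members was called lower, Sqle, where 3.83% of genes were, and 0 were called higher, where 5.03% of genes were. In M1, 1 member was called lower, Fdps, where 2.3% of genes were, and 1 was called higher, Elovl6, where 1.17% of genes were, both on few counts. The interval lay below 0, at any size of ratio, in 25 of 32 members in M0, 12 in M1 and 21 in M2, where 33.7%, 21.3% and 31.6% of genes did. The median log2 ratio with regorafenib in M0, M1 and M2 was -0.37, -0.14 and -0.22 for the sterol enzymes and -0.85, -0.27 and -0.26 for the fatty acid enzymes, against -0.01, -0.02 and -0.01 for all genes.

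**Figure D2:**
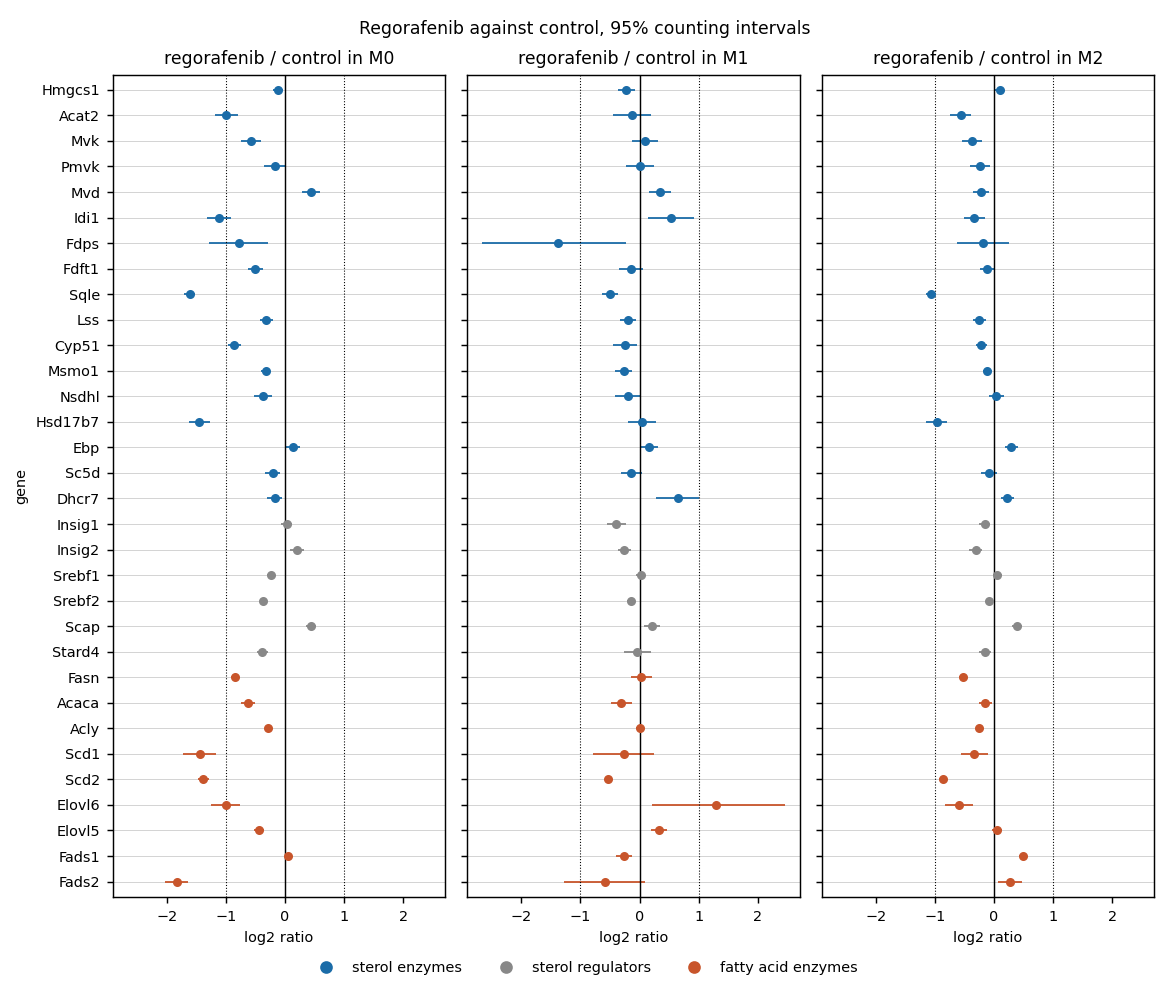
Log2 ratio of regorafenib to control for each of the 32 genes in M0, M1 and M2 (x axis), with 95% counting intervals and dotted lines at 2-fold. In M0 Fads2 (-1.83), Sqle (-1.61), Hsd17b7 (-1.45), Scd1 (-1.44) and Scd2 (-1.39) lie farthest to the left, and in M2 Sqle (-1.07) is past the line.

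The only fit with more than 1 library per side was an additive model of state and treatment over the 6 libraries, tested with edgeR's quasi-likelihood test at a Benjamini-Hochberg adjusted p under 0.05 over 14110 genes. It had 2 residual degrees of freedom, and these measure how far the drug response varied from state to state. The test also draws each gene's error towards a value estimated over all genes, so its p-values do not rest on that spread alone. For M1, 20 of 32 members fell, where 18.2% of genes did, and 2 rose, Scd2 and Insig2, where 18.5% of genes did. The 20 that fell were 10 of 17 sterol enzymes, 3 of 6 regulators and 7 of 9 fatty acid enzymes. With total counts 27 fell, where 36.2% of genes did, and 1 rose, Scd2, where 11.5% did. For M2, 0 of 32 members passed, where 0.198% of genes did. An unadjusted p under 0.05 was reached by 3 members, where 1309 of the 14110 genes did. By DESeq2 1 member passed, Scd2, where 2.98% of its genes did. For regorafenib across the states, 0 of 32 members passed, where 0.0% of genes did and 1637 genes had an unadjusted p under 0.05. Of the members, 5 had an unadjusted p under 0.05, and 2 passed by DESeq2, Sqle and Scd2, where 2.31% of its genes did. In that fit Sqle had a log2 fold change of -1.05 ± 0.23 (SE) and Scd2 of -0.91 ± 0.19, both with an edgeR adjusted p = 0.315. By DESeq2 the adjusted p was 0.0107 for Sqle and 0.0113 for Scd2.

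The early enzymes of the mevalonate pathway were lower in M1 to different degrees. Acat2 joins 2 molecules of acetyl-CoA, and it stood at 20.5 and 10.3 CPM in M0 (control and regorafenib), 7.04 and 6.43 in M1, with 20.8 and 14.1 in M2. Hmgcs1, which makes HMG-CoA, stood at 82.0 and 75.4 CPM in M0, 35.3 and 30.2 in M1, with 104 and 111 in M2. Acat2 was high in both M0 and M2 controls and lower with the drug in either state, whereas Hmgcs1 differed little with the drug (-0.12, -0.22 and 0.09 in M0, M1 and M2). The log2 ratio of the M1 to the M0 control was -1.54 (95% interval -1.79 to -1.30) for Acat2 and -1.22 (-1.33 to -1.11) for Hmgcs1. With regorafenib in M0, Acat2 was at -0.99, just short of the 2-fold line, and it was called with DESeq2's size factors (-1.01). The kinases Mvk and Pmvk and the decarboxylase Mvd, which turn mevalonate into isopentenyl diphosphate, were not called in any of the 5 comparisons with TMM scaling, with log2 ratios between -0.81 and 0.69, though Mvk was called lower in M1 with total counts (-1.25). Mvd was higher with regorafenib in M0 (0.44) and M1 (0.35) and lower in M2 (-0.22).

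Idi1, which interconverts the isoprenoid building blocks, stood at 20.2 and 9.28 CPM in M0, 3.87 and 5.60 in M1, with 19.1 and 15.2 in M2. Its control level in M1 was less than that of any other library, and the drug ratio changed side, with -1.12 (-1.32 to -0.92) in M0 and 0.53 (0.15 to 0.92) in M1. Fdps makes farnesyl diphosphate, and it had only 93 and 58 counts in M0, 25 and 9 in M1, with 110 and 74 in M2. Its call with regorafenib in M1 (-1.37, -2.66 to -0.23) rests on 25 against 9 counts. Fdft1, which commits farnesyl diphosphate to squalene, stood at 38.5 and 27.2 CPM in M0, 18.2 and 16.5 in M1, with 36.8 and 33.7 in M2. Both M1 libraries lay below the other 4, with a log2 ratio of -1.08 (-1.24 to -0.93) of the M1 to the M0 control.

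The step from squalene to the first sterol showed the largest drug ratio of the sterol enzymes in M0 and M2. Sqle, the oxygenase that opens this step and a rate-limiting enzyme of the pathway, stood at 118 and 38.7 CPM in M0, 45.3 and 32.1 in M1, with 137 and 65.5 in M2. The drug library was the lower one in each state, and the M0 drug library lay below the M1 control. The log2 ratio with regorafenib was -1.61 (-1.70 to -1.52) in M0, -0.50 (-0.63 to -0.36) in M1 and -1.07 (-1.14 to -0.99) in M2. In M2 the call was lost when libraries were scaled by total counts (-0.99). Lss, the cyclase that acts right after Sqle, was less apart, with log2 ratios of -0.32, -0.20 and -0.25 with regorafenib in M0, M1 and M2.

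After lanosterol, the demethylating enzymes were split in their response to the drug. Hsd17b7, the ketoreductase of this complex, stood at 30.9 and 11.3 CPM in M0, 11.3 and 11.7 in M1, with 26.3 and 13.4 in M2. Cyp51, the lanosterol demethylase, stood at 58.8 and 32.5 CPM in M0, 17.7 and 15 in M1, with 66.1 and 56.8 in M2. For Hsd17b7 only the M0 and M2 controls were high, and the 4 other libraries lay between 11.3 and 13.4 CPM. Its log2 ratio with regorafenib was -1.45 (-1.63 to -1.28) in M0, 0.04 (-0.20 to 0.28) in M1 and -0.97 (-1.15 to -0.80) in M2. Cyp51 was at -0.86, -0.24 and -0.22. Msmo1, the C4 methyl oxidase, stood at 90.4 and 71.9 CPM in M0, 35.2 and 29.3 in M1, with 103 and 94.8 in M2. Nsdhl, its partner that removes the carboxyl group, was at -0.37, -0.19 and 0.04 with regorafenib in M0, M1 and M2, and at -0.95 in the M1 against the M0 control. In the additive fit Cyp51 and Msmo1 fell in M1, with log2 fold changes of -1.38 ± 0.23 and -1.27 ± 0.16 (SE), with edgeR adjusted p = 0.00654 and 0.00278, while Hsd17b7 was at -0.63 with adjusted p = 0.243.

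The last steps held the enzyme with the deepest M1 ratio of the sterol arm. Dhcr7, which makes cholesterol from 7-dehydrocholesterol, stood at 36.0 and 31.9 CPM in M0, 4.22 and 6.60 in M1, with 39.9 and 46.5 in M2. Both M1 libraries lay far below the others, with a log2 ratio of -3.09 (-3.39 to -2.81) without drug, and in the additive fit Dhcr7 fell by 2.62 ± 0.26 (edgeR adjusted p = 0.00149). With regorafenib it was at -0.18 in M0, 0.65 (0.28 to 1.01) in M1 and 0.22 in M2. Ebp, the isomerase, and Sc5d, the desaturase that precede Dhcr7, were not called in any of the 5 comparisons with TMM scaling, with log2 ratios between -0.68 and 0.29, though Sc5d was called lower in M1 with total counts (-1.12). Ebp was the one sterol enzyme with an interval above 0 with regorafenib in all 3 states (0.14, 0.16 and 0.29).

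Of the 6 regulators, only Stard4 was called lower in the M1 against the M0 control, beside 18.0% of all genes, and 3 were called lower in M1 when all libraries had received the drug, Stard4 (-1.83), Insig1 (-1.33) and Scap (-1.08), beside 19.4% of all genes. Their median log2 ratio was -0.75 in either comparison and -0.11 with regorafenib in M0. Srebf2, which encodes the SREBP that favours sterol genes, and Srebf1, which encodes the forms that favour fatty acid genes, were not called in any comparison with TMM scaling. Srebf2 was at -0.65 in the M1 against the M0 control, where it was called with total counts (-1.09), and at -0.37, -0.15 and -0.08 with regorafenib in M0, M1 and M2. Srebf1 was at -0.01 in the M1 against the M0 control, and this sign turned with DESeq2's size factors (0.03). Scap, the escort of SREBP, was lower in the M1 control (-0.86) and had intervals above 0 with regorafenib in all 3 states (0.43, 0.21 and 0.39). The anchors went opposite ways in M1. Insig1, itself a target of SREBP, was at -0.92 and Insig2, which is not, was at 0.95 without drug. In the additive fit Insig1 fell by 1.06 ± 0.18 and Insig2 rose by 0.77 ± 0.19, with edgeR adjusted p = 0.00724 and 0.0270. The Insig2 call was lost with total counts (0.29, adjusted p = 0.243). Stard4, which moves cholesterol between membranes, stood at 58.9 and 45.1 CPM in M0, 13.0 and 12.7 in M1, with 55.3 and 49.7 in M2. Its log2 ratio was -2.17 (-2.35 to -2.01) in the M1 against the M0 control and was not called with the drug.

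In the fatty acid arm the synthase differed more between libraries than the citrate lyase. Acly differed little, with 161 to 210 CPM over the 6 libraries. Acaca, which makes malonyl-CoA, was at -0.88 in the M1 against the M0 control and at -0.62 with regorafenib in M0. Fasn, the synthase of palmitate, stood at 163 and 90.7 CPM in M0, 20.4 and 20.8 in M1, with 145 and 101 in M2. Both M1 libraries were lowest and hardly differed from each other, and the drug library was the lower one in M0 and M2. The log2 ratio of Fasn was -3.00 (-3.13 to -2.87) in the M1 against the M0 control, and -0.85, 0.03 and -0.52 with regorafenib in M0, M1 and M2. In the additive fit it fell in M1, with a log2 fold change of -2.50 ± 0.25 (SE) (edgeR adjusted p = 0.00150).

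The elongases Elovl6 and Elovl5 act on different chains, Elovl6 on palmitate and Elovl5 on polyunsaturated acids. Elovl6 had 401 and 215 counts in M0, 11 and 25 in M1, with 435 and 221 in M2. It was almost silent in M1, with a log2 ratio of -4.94 (-5.95 to -4.08) to the M0 control, and its drug ratio was -1.0 (-1.25 to -0.76) in M0, -0.59 in M2 and 1.28 (0.21 to 2.46) in M1. The M0 call sits on the 2-fold line and was lost with total counts (-0.99), and the M1 value rests on 11 against 25 counts. Elovl5 stood at 83.0 and 60.9 CPM in M0, 31.8 and 39.8 in M1, with 70.8 and 73.6 in M2. It was lower in both M1 libraries, at -1.39 (-1.50 to -1.27) without drug.

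The neighbouring desaturase genes Scd1 and Scd2 on chromosome 19 went opposite ways in M1. Both enzymes put the first double bond into saturated acids. Scd1 (chr19:44394455-44407879, minus strand) stood at 12.4 and 4.58 CPM in M0, 2.90 and 2.41 in M1, with 12 and 9.54 in M2. Scd2 (chr19:44293674-44306864, plus strand) stood at 101 and 38.6 CPM in M0, 258 and 179 in M1, with 183 and 101 in M2. Scd1 was lowest in the M1 libraries and Scd2 was highest in the M1 control, and the drug library was the lower one of each pair for both genes. In the M1 against the M0 control Scd1 was at -2.10 (-2.47 to -1.73) and Scd2 at 1.35 (1.29 to 1.42), and in the additive fit Scd1 fell, with a log2 fold change of -1.5 ± 0.37, and Scd2 rose, with 1.83 ± 0.24 (edgeR adjusted p = 0.0261 and 0.00328). With regorafenib in M0, M1 and M2, Scd1 was at -1.44, -0.27 and -0.33 and Scd2 at -1.39, -0.53 and -0.86. In the M2 against the M0 control Scd2 was at 0.86 and Scd1 at -0.04.

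The other neighbouring pair, Fads1 and Fads2, makes polyunsaturated acids, with Fads2 at the first desaturation and Fads1 at a later one. Fads1 (chr19:10182888-10196877, plus strand) stood at 154 and 159 CPM in M0, 39.2 and 32.6 in M1, with 103 and 144 in M2. Fads2 (chr19:10062765-10101746, minus strand) stood at 30.4 and 8.52 CPM in M0, 1.94 and 1.29 in M1, with 11.1 and 13.4 in M2. Both were lowest in M1, but only Fads2 was called with the drug in M0. The log2 ratio with regorafenib in M0 was -1.83 (-2.03 to -1.64) for Fads2 and 0.05 (-0.01 to 0.11) for Fads1, and in M2 it was 0.27 (0.06 to 0.48) and 0.49 (0.42 to 0.55). Fads2 was also the one member called in the M2 against the M0 control, at -1.45 (-1.63 to -1.28), where Fads1 was at -0.58. In M1 both fell in the additive fit, with log2 fold changes of -3.40 ± 0.56 for Fads2 and -2.06 ± 0.23 for Fads1 (edgeR adjusted p = 0.00671 and 0.00200).

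Some members were lower with the drug in all 3 states. Acaca, Cyp51, Lss, Msmo1, Scd2, Sqle and Srebf2 had an interval below 0 in M0, M1 and M2, which is 7 of 32 members, where 5.82% of genes did. With total counts only Lss, Scd2 and Sqle did, 3 of 32 members and 4.14% of genes. For the 7, the M1 ratios lay between -0.15 and -0.53. Dhcr7, Elovl5, Elovl6, Fads1, Fads2, Hmgcs1, Idi1, Insig2 and Mvd, 9 of 32 members, had intervals on opposite sides of 0 in 2 states, where 20.7% of genes did.

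The polarized states were also compared with M0 when all libraries had received regorafenib. These comparisons share the drug libraries with the drug ratios above, so their values are given side by side only. Of the 32 members, 12 were called lower in M1 than in M0 under the drug, where 19.4% of genes were, and 1 higher, Scd2, where 15.4% of genes were. The median of the sterol enzymes was -0.68 with the drug and -1.22 without, and that of the fatty acid enzymes -0.93 and -1.97. For Sqle the log2 ratio of M1 to M0 was -0.27 under the drug and -1.38 without, and for Hsd17b7 it was 0.04 and -1.45. For Hmgcs1 it was -1.32 and -1.22, and for Dhcr7 -2.27 and -3.09. In M2 against M0 under the drug, 2 members were called higher, Scd1 (1.06) and Scd2 (1.38), where 3.76% of genes were, and 0 lower, where 3.81% of genes were.

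**Figure D3:**
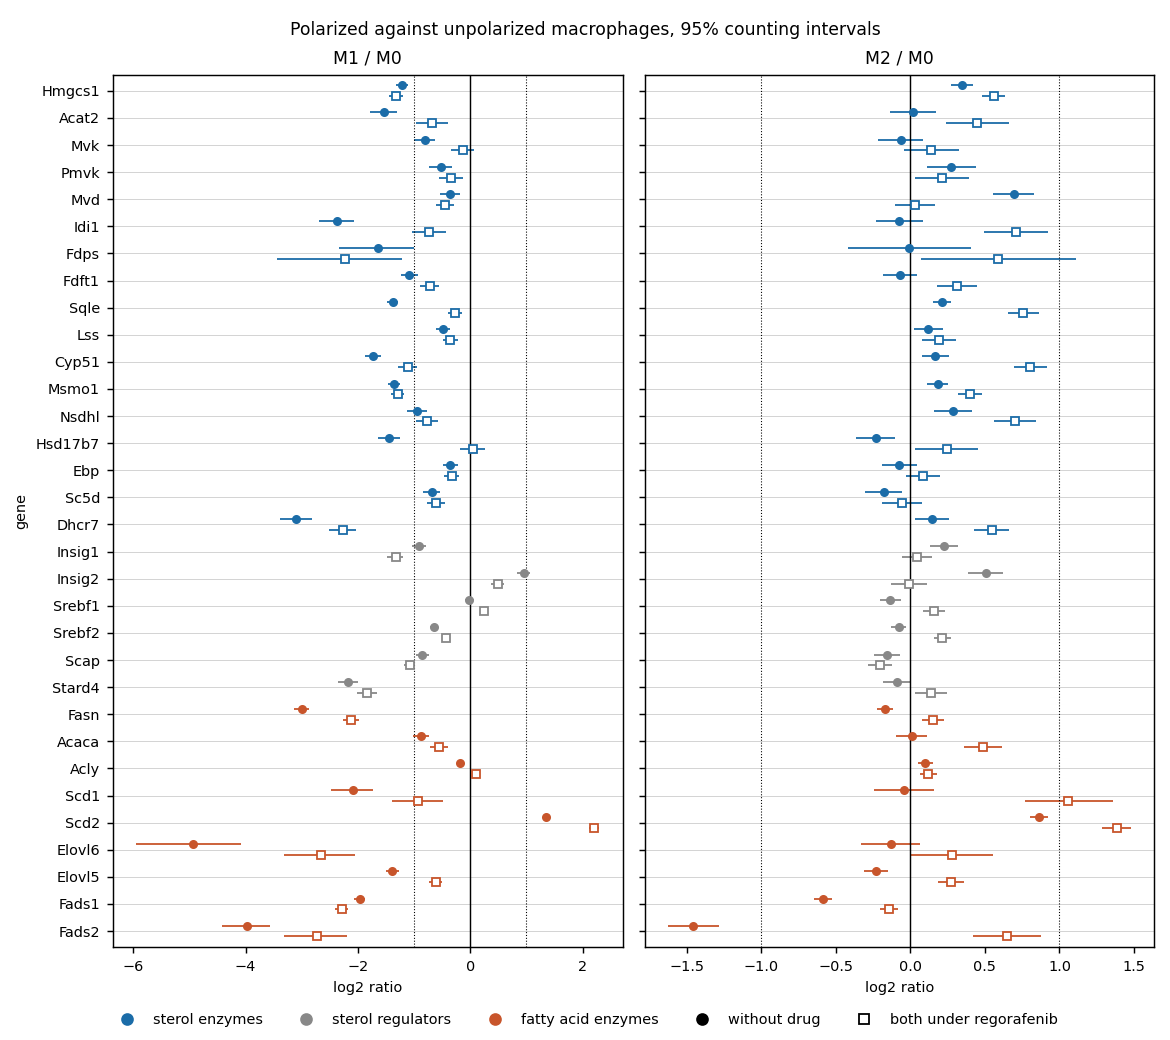
Log2 ratio of M1 to M0 (left) and of M2 to M0 (right) for each of the 32 genes, without drug (filled circles) and with all libraries under regorafenib (open squares), with 95% counting intervals and dotted lines at 2-fold. For Sqle the M1 ratio is -1.38 without drug and -0.27 with it, and Scd2 lies to the right of 0 in both panels.

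The 2 arms were summed to compare their levels across the libraries. The 17 sterol enzymes summed to 707 and 500 CPM in M0, 320 and 295 in M1, with 784 and 668 in M2. The 9 fatty acid enzymes summed to 797 and 559 CPM in M0, 552 and 470 in M1, with 792 and 666 in M2. With regorafenib in M0 the arms stood at 70.7% and 70.1% of the M0 control. In the M1 control they stood at 45.2% and 69.2%. Without Scd2 the fatty acid arm stood at 42.3% in the M1 control and 74.7% with regorafenib in M0. In the M2 control it stood at 87.35% without Scd2 and 99.3% with it. The 6 regulators stayed between 67.7% and 98.6% of the M0 control in the other 5 libraries.

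Genes of cell division, which need membrane lipid, stood lower in some of the same libraries. The summed level of 14 proliferation genes was 23.8% of the M0 control with regorafenib in M0, 7.40% and 7.91% in the M1 control and M1 drug libraries, and 44.5% and 39.7% in M2. All 14 were called lower with regorafenib in M0 (-1.71 to -2.61) and in the M1 against the M0 control, and 12 in the M2 against the M0 control, beside 9.59%, 18.0% and 6.64% of all genes. The drug ratio of these genes lay between -0.45 and 0.80 in M1 and between -0.52 and 0.11 in M2, and 0 were called. The part of proliferation in the results of any state was not tested.

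**Figure D4:**
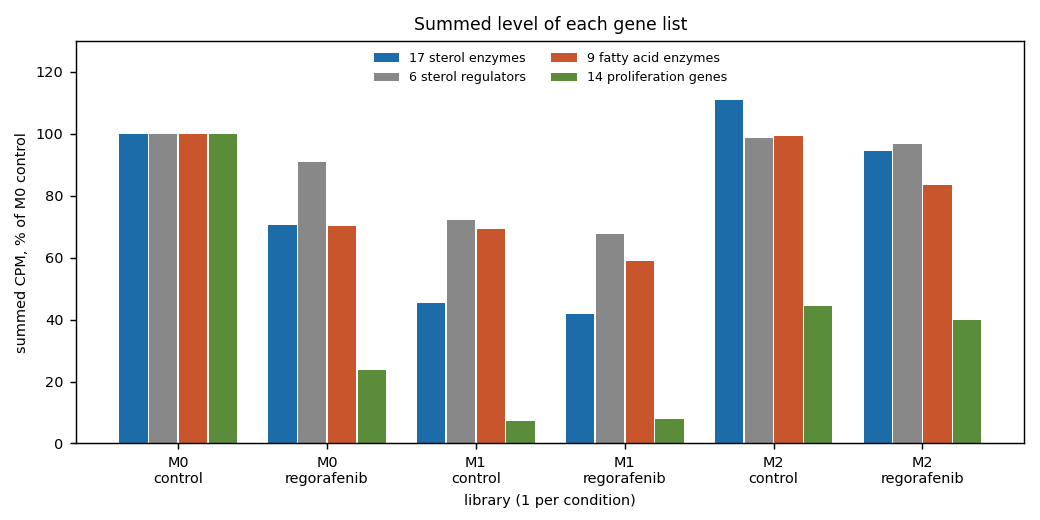
Summed TMM-scaled CPM of the sterol enzymes, the sterol regulators, the fatty acid enzymes and the proliferation genes in each library (1 per condition), as a percentage of the M0 control. The sterol enzymes stand at 70.7% with regorafenib in M0, 45.2% in the M1 control and 111% in the M2 control, and the proliferation genes at 23.8%, 7.40% and 44.5%.

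Genes next to these in the pathway were described by lists. Of 19 other genes of fatty acid metabolism, 4 were called lower and 2 higher in the M1 control, beside 18.0% and 16.1% of all genes. The highest was Acsl1 (4.29), which activates fatty acids for use, and the lowest was Elovl7, which had 10 counts in the M0 and 0 in the M1 control, so that no ratio is given. With regorafenib in M0, 2 of these 19 were called higher and 1 lower (Hsd17b12, at -1.05), beside 7.81% and 9.59% of all genes, and in M2 1 was called higher, beside 5.03%. Lpin1, a phosphatase of triglyceride synthesis, was at 1.49 in M0 and 2.34 in M2. Of 6 genes that process or turn over SREBP, 1 was called higher in the M1 control, Rnf145 (1.44), beside 16.1% of all genes, and 0 were called with the drug. Of 4 genes of sterol storage and transport, 0 were called in any of the 5 comparisons, with log2 ratios between -0.50 and 0.74. Of 8 genes of fatty acid oxidation, 0 were called in any of the 5 comparisons, with log2 ratios between -0.92 and 0.76. Across these comparisons and both directions, between 1.17% and 18.0% of all genes were called.

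LXR is the receptor through which cells respond to a surplus of sterol, and the list held its 2 receptor genes and 6 genes it is known to activate. Of these 8 genes, 3 were called higher with regorafenib in M0, beside 7.81% of all genes, 2 in M2, beside 5.03%, and 0 in M1, and 0 were called lower. Abca1, which exports cholesterol, was at 2.19 in M0 and 2.47 in M2, and Apoe at 5.03 and 3.30, whereas Lpcat3 was at 0.06 and 0.04 and the receptor gene Nr1h3 at -0.29 and -0.31. In the M1 against the M0 control, 2 of the 8 were called higher, Abca1 (4.15) and Mylip (1.64), beside 16.1% of all genes, and 3 had an interval below 0, Abcg1 (-0.70), Apoe (-0.69) and Smpdl3a (-0.53). In the M2 against the M0 control 1 was called lower, Abca1 (-1.83, 513 to 172 counts), and 0 higher, beside 6.64% and 3.55% of all genes. Ch25h, which makes 25-hydroxycholesterol, had 405 and 34 counts in M0, 2834 and 1870 in M1, with 678 and 4 in M2. Its log2 ratio was 3.06 in the M1 against the M0 control and -3.68 and -7.02 with regorafenib in M0 and M2. Cyp27a1, the 27-hydroxylase, had 192 and 1277 counts in M0, 9 and 20 in M1, with 213 and 757 in M2. Oxysterol itself was not measured.

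Some members share sequence with other genes, which limits what counts per gene can say. Of their 100-base words, Acat2 shared 28.9%, Acaca 23.7%, Idi1 21.9%, Fdps 21.4% and Fdft1 18.3% with another gene. The Fdps-like gene Gm3571 had 84 and 39 counts in M0, 14 and 14 in M1, with 88 and 44 in M2, about as many as Fdps, so the split of reads between them is uncertain. Fdft1 overlaps the exons of Ctsb on the opposite strand, and Ctsb had up to 528923 counts. The log2 ratio of Ctsb was -0.73 in the M1 against the M0 control and 0.22 with regorafenib in M0, where Fdft1 was at -0.50. Tcp1, which shares words with Acat2, had 4631 to 8764 counts. With regorafenib in M0, M1 and M2 Tcp1 was at -0.73, 0.07 and -0.54, and Acat2 at -0.99, -0.13 and -0.56. Between the M1 and the M0 control Tcp1 was at 0.31 and Acat2 at -1.54. Sqle, Hsd17b7, Fasn, Fads1, Fads2 and Stard4 shared 0 such words.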

How the data were processed

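RNA was sequenced from BMDMs in 6 conditions with 1 library each. The authors deposited raw counts per gene, made by trimming with cutadapt 2.4 and mapping to GRCm38 and counting with STAR 2.7.2a on Gencode annotation, per the labels and the methods of the study. Which strand column was taken is not given in the sources used here. Gene names and positions came from Gencode M21 (53229 of 54446 IDs matched with their version, 1180 without it and 37 stayed unnamed). Counts were scaled with TMM (edgeR 4.0.16, R 4.3.3, factors 0.820 to 1.12). Ratios carry conditional exact binomial 95% intervals of the counts, with a count of 0 replaced by 0.5, and cover counting error only. The additive fit used edgeR's quasi-likelihood test after filterByExpr, with DESeq2 1.42.0 as an alternative. Its p-values rest on the spread between these samples, in part pooled over genes, and this spread may be technical. The NOISeq analysis of the study, which simulates replicates, was not used. Methods were tested on simulated data. Tables came from pandas 2.3.3 and intervals from scipy 1.17.1 under Python 3.11.15. Promoters came from RefSeq (GRCm38.p6). All 32 members are named. Values in every library are given for those called in any of the 5 comparisons made within states or against M0 without drug. Listed genes of other processes are named as the highest or lowest of their list, or as oxysterol and LXR genes. Markers of cell types and states did not follow that rule and were picked with their values known. Scd2, Sqle, Hsd17b7 and other genes set beside them, Ctsb, Tcp1 and Gm3571 were picked with their values known. The members and lists were chosen with earlier results of these data known. Alternatives were other scalings, folds, filters and tools, and leaving out each state.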

Additional observations from a re-analysis of the deposited data

Results flagged for a closer look

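The drug ratio differed in side between states for 3 of 32 members, with counting intervals apart from 0 on both sides and the 2 ratios at least 2-fold apart, as in 6.64% of all genes. The differences were not tested, since each ratio comes from 1 library per side. For Idi1 the log2 ratio with regorafenib was -1.12 in M0 and 0.53 in M1, a difference of 1.65. For Elovl6 it was -1.0 in M0 and 1.28 in M1, a difference of 2.29, and -0.59 in M2, which is -1.88 from M1. The M1 values of Elovl6 rest on 11 and 25 counts. For Fads2 it was -1.83 in M0 and 0.27 in M2, a difference of 2.10.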

How the results depend on the processing

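With other fold limits, the members called with regorafenib in M0 were 12 lower at 1.5-fold (16.9% of all genes) and 2 at 3-fold (5.12%), in M1 2 higher at 1.5-fold (2.66%) and 0 higher and 0 lower at 3-fold (0.469% and 1.01%), and in M2 4 lower at 1.5-fold (9.25%) and 0 at 3-fold (1.62%). Against the M0 control, M1 had 2 higher at 1.5-fold (22.7%), 0 higher and 10 lower at 3-fold (11.2% and 12.1%), and M2 had 2 higher at 1.5-fold (6.34%) and 0 lower at 3-fold (2.49%). With total counts, 0 members were called lower with regorafenib in M2 (3.2% of all genes) and 0 higher in the M1 against the M0 control (11.4%). With this scaling the medians moved to -1.66 for the sterol enzymes and -2.41 for the fatty acid enzymes in M1 and to -0.22 for the fatty acid enzymes in M2 (-1.78 in M1 with 1 CPM added). With total counts the share of higher calls with regorafenib in M2 moved from 56.7% to 64.8%. The members with an interval below 0 with the drug in all 3 states, numbered 3 instead of 7 with total counts, an alternative chosen after seeing the data. DESeq2's size factors, no filter and a minimum of 100 counts kept every count of members within 1.5 times its main value. In the additive fit, regorafenib gave 2 members without the filter (1.34% of all genes) and 2 by DESeq2 (2.31%). Without the M0 or the M2 pair it gave 0 (0.0% of all genes). Without the M1 pair it gave 1 (2.85%), Sqle, with an edgeR adjusted p = 0.0499. M2 gave 1 without the filter (1.64% of all genes) and 1 by DESeq2 (2.98%). The signs of Stard4 with regorafenib in M1, of Srebf1 in M1 and of Acat2 and Acaca in M2 against M0 turned with the scaling. The cause was not tested. With 1 library per condition, no difference of 2 libraries can be separated from library-to-library variation, and members under 100 counts in a library (Fdps in every state, and Elovl6, Fads2 and Scd1 in M1) carry wide intervals. No paired analysis was possible because the labels give no replicate numbers to pair by. The additive fit already holds state as a term, and each state has 1 control and 1 drug library.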
